A study of Mus musculus with 4 samples.

Results

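The 36 genes described here encode 15 Wnt ligands, 10 frizzled receptors and 11 secreted modulators of Wnt signalling. The modulators are 5 secreted frizzled-related proteins (SFRPs, Frzb included), 3 Dickkopf proteins and 3 R-spondins. They were picked by gene symbol from the 40999 features in the deposited tables. Their levels were followed in 4 stranded total RNA libraries made from pooled XX and XY gonads of wild-type C57BL/6J mouse embryos, collected daily from E11.5 to E14.5. Pooling the sexes means that a value is an average over developing testes and ovaries. The mesonephros was still attached to the gonad in the E11.5 library and had been dissected away in the other 3 libraries.

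Total counts were 31266481, 25593453, 31752562 and 31526303 from E11.5 to E14.5. There was 1 library per time point, so there were no replicates. Each test therefore compared 2 libraries, not the time points themselves, and every interval covers counting error only. A gene was called a differentially expressed gene (DEG) when edgeR's exact test, at a preset biological coefficient of variation of 0.1, gave a change of at least 2-fold and a false discovery rate (FDR) of at most 0.05 over the 20114 genes tested. Below, a level is the read count per kilobase of exon, divided by the library size as RPKM is but with that size scaled by the trimmed mean of M-values (TMM), and a log2 ratio is the ratio of TMM-scaled counts with its 95% interval.

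The share of counts from the ribosomal RNA gene Rn18s-rs5 was 9.06%, 1.31%, 1.03% and 40.7% from E11.5 to E14.5. TMM scaling sets the bulk of genes level between libraries. With scaling by total counts the median gene of the E14.5 versus E13.5 comparison moved by −1.06 on the log2 scale, so values at E14.5 are given relative to the bulk of genes.

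Wnt ligands are secreted, lipid-modified glycoproteins that bind frizzled receptors together with a co-receptor. Some ligands act through beta-catenin and TCF/LEF factors and others through planar cell polarity or calcium routes. In the fetal gonad, Wnt signalling is known as a driver of ovarian development, and in the adjoining mesonephros it is needed for tubule formation. SFRPs and Frzb bind ligands outside the cell, Dickkopf proteins such as Dkk1 block the co-receptors, and R-spondins raise the amount of receptor at the cell surface.

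The markers of the tissue were checked first. Summed levels of 8 nephric and mesonephric genes were 57.9, 11.2, 9.70 and 11.07 from E11.5 to E14.5. In this and the other lists the most abundant gene is the one with the highest mean over the 4 libraries, which need not be the highest in each. Here it was the kidney-lineage factor Pax8, and 6 of the 8 (Cdh16, Eya1, Gata3, Pax2, Ret and Six2) fell from E11.5 to E12.5. Pax8 was lower, with a log2 ratio of −0.82 (−1.03 to −0.61), and Lhx1 higher, with 0.64 (0.38 to 0.91), and neither was called. Of 3 neuronal and glial markers, with Sox10 highest on the mean but Dbh at E11.5, the neuronal genes Dbh and Elavl4 fell in that comparison while the glial gene Sox10 was higher but not called, with a log2 ratio of 0.98 (0.73 to 1.24), and the summed levels were 7.84, 4.59, 3.83 and 3.49 in the order of age. None of these nephric and neural markers was at 0 in any library.

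Most gonadal markers moved the other way between E11.5 and E12.5. DEGs that rose were 3 of 5 gonadal somatic genes, 5 of 6 Sertoli cell genes, 4 of 4 pregranulosa genes, 5 of 5 Leydig cell genes and 5 of 5 germ cell genes. Not called were Wt1, which was lower with a log2 ratio of −0.16 (−0.20 to −0.12), and Emx2, with −0.01 (−0.08 to 0.07). Sox9 of the Sertoli list was higher but not called, with 0.76 (0.69 to 0.83). Summed levels at E11.5 and E12.5 were 188 and 271 for the somatic list (Wt1 highest on the mean, Gata4 at E12.5), 28.5 and 394 for the Sertoli list (Amh on the mean, Sox9 at E11.5) and 13.2 and 47.7 for the pregranulosa list (Fst on the mean). They were 5.60 and 80.0 for the Leydig list (Cyp17a1 on the mean, Cyp11a1 at E11.5 and Hsd3b1 at E12.5), in which Insl3 was at 0 counts at E11.5, and 7.84 and 121 for the germ cell list (Dazl on the mean, Dppa3 at E11.5). None of 5 endothelial markers was called (summed levels 81.5 and 80.2, Cdh5 most abundant), and 1 of 5 erythroid markers, the embryonic globin Hbb-bh1, fell (2277 and 2610, Hbb-y most abundant). Of 4 smooth muscle markers Myh11 rose and Actg2 fell (25.2 and 29.4, Acta2 highest on the mean and Tagln at E11.5). In such bulk libraries, fewer cells of a type and less RNA per cell cannot be told apart.

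Of the 36 genes, 34 passed the filter on low counts and were tested. Wnt3a (0, 1, 2 and 0 counts in the order of age) and Wnt10b (2, 4, 3 and 2 counts) did not. Wnt7a and Sfrp5 reached the filter only in the E14.5 library and Wnt16 only in the E11.5 library. A total of 27 genes had at least 10 counts in each of the 4 libraries.

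**Figure D1:**
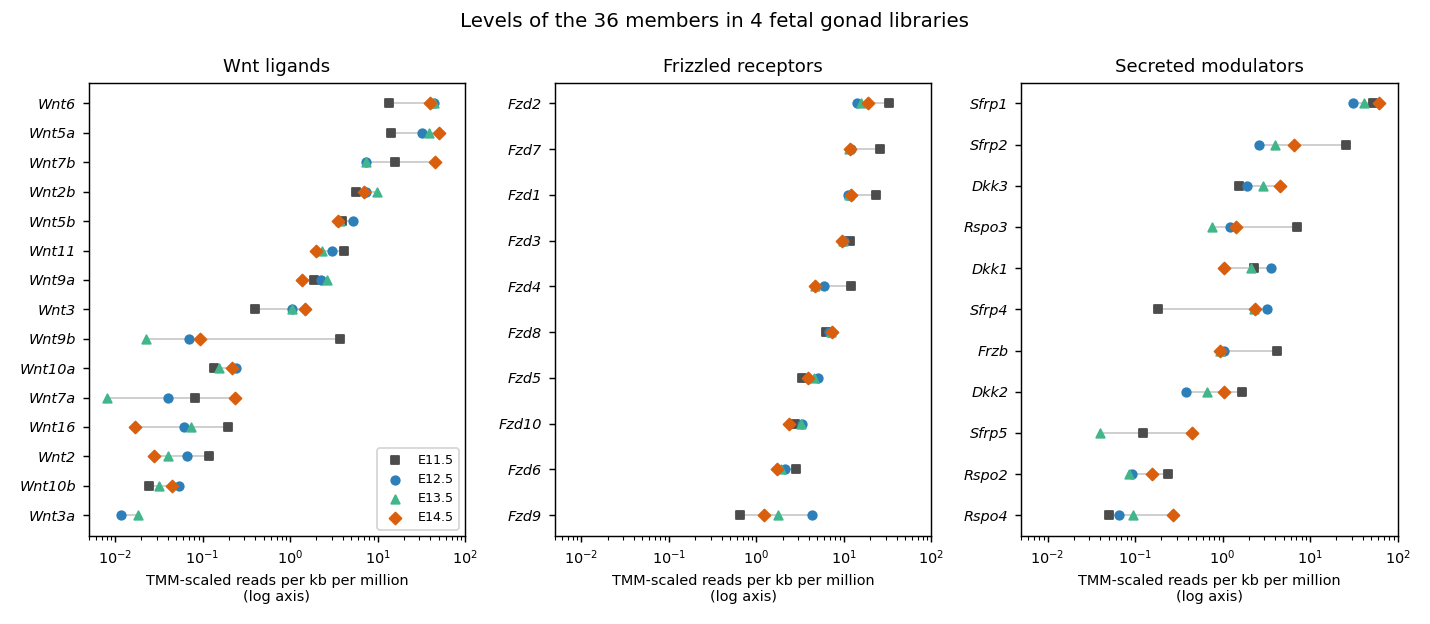
Level of each of the 36 genes (reads per kilobase with TMM-scaled library sizes, log axis) in each library; grey lines join the lowest and highest point of a gene, and libraries with 0 counts (Wnt3a at E11.5 and E14.5, Sfrp5 at E12.5) have no point. Wnt6, Wnt5a, Wnt7b and Sfrp1 reach levels of about 40 or more in at least 1 library. Examples of genes that stand apart at E11.5 are Wnt9b, Sfrp2, Rspo3 and Frzb on the high side and Sfrp4 on the low side.

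The comparison of E12.5 with E11.5 spans the onset of sex differentiation and the removal of the mesonephros, and it held most of the calls. Of the 34 genes tested, 5 rose (Fzd9, Sfrp4, Wnt3, Wnt5a and Wnt6), where 7.01% of all tested genes rose. Down-regulated were 11 (Dkk2, Frzb, Fzd1, Fzd2, Fzd4, Fzd7, Rspo3, Sfrp2, Sfrp5, Wnt7b and Wnt9b), where 6.88% of all tested genes fell. Of the 8 nephric and mesonephric markers 6 fell in the same comparison, and their part in the fall of these genes was not tested. Sfrp5, at 8 counts at E11.5 and 0 at E12.5, was tested only through its counts at E14.5.

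Among the ligands, Wnt9b, which triggers tubule formation in the mesonephros and kidney, changed most. It had 575, 10, 4 and 8 counts from E11.5 to E14.5. Only the E11.5 library, the library with mesonephros, held more than a few counts. The log2 ratio of E12.5 to E11.5 was −5.72 (−6.79 to −4.83), and the 8 nephric and mesonephric markers ran from −6.52 (Six2) to 0.64 (Lhx1), with a median of −2.67.

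Wnt6 and Wnt5a rose and had, with Wnt7b, the highest mean levels of the ligands, although Wnt2b stood above Wnt7b at E13.5. The level of Wnt6 was 13.46, 44.2, 43.7 and 39.5 from E11.5 to E14.5. It was lowest in the library with mesonephros and similar in the other 3. The log2 ratio of E12.5 to E11.5 was 1.71 (1.61 to 1.82). The level of Wnt5a, a ligand of the routes that do not use beta-catenin, was 14.1, 32.05, 38.5 and 49.8 in the order of age. It was higher in each library than in the one before, but only the first step, with a log2 ratio of 1.18 (1.12 to 1.25), passed the test. Together Wnt5a, Wnt6 and Wnt7b made up 68.2%, 81.2%, 81.8% and 89.5% of the summed ligand level in the order of age.

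Wnt3, a ligand of the beta-catenin route, was rare and rose with them. It had 46, 112, 143 and 96 counts, levels of 0.394, 1.05, 1.06 and 1.496 in the order of age, and a log2 ratio of 1.41 (0.90 to 1.94).

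Wnt7b fell and then rose. It had 2401, 1026, 1270 and 3793 counts from E11.5 to E14.5, and levels of 15.9, 7.41, 7.27 and 45.6. The 2 middle libraries were low, and the E14.5 library stood highest. The log2 ratio was −1.10 (−1.21 to −0.99) for E12.5 to E11.5 and 2.65 (2.56 to 2.74) for E14.5 to E13.5. The share of Rn18s-rs5 was likewise higher in the E11.5 and E14.5 libraries than in the 2 between. The longest coding transcripts of the 36 genes were aligned by BLASTN to 374 transcripts, those annotated as ribosomal RNA and those of Lars2, Gm42418, Gm26917, Gm26870, AY036118, Mir6236 and Mir6240, a set chosen after the values had been seen. Wnt7b had no alignment at an E value of 0.001 or less. Fzd3, Fzd6 and Fzd7 had 4, all to Lars2, of 47 to 84 bases at 72.3% to 80.9% identity, and Lars2 itself had 162002, 15652, 10378 and 1125000 counts in the order of age. Of the 8 nephric and mesonephric markers, Cdh16 alone was called in E14.5 versus E13.5, with a log2 ratio of 2.28 (1.63 to 2.96) and 700, 91, 29 and 67 counts from E11.5 to E14.5. Of the 8, 5 were higher and 3 lower in that comparison, with a median of 0.09. The part of the ribosomal share and of other cell types in the Wnt7b result was not tested.

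Wnt7a, its close relative, was near the limit of detection with 9, 4, 1 and 14 counts. It was called up at E14.5, with a log2 ratio to E13.5 of 4.88 (2.16 to 10.28) and to E12.5 of 2.54 (0.87 to 4.61), both resting on few counts. The gene passed the filter only through the E14.5 library, without the filter the call against E12.5 was lost, and with at least 10 counts required in both libraries both calls were lost.

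The other ligands did not pass the test in any comparison. Levels of Wnt2b, a ligand of the beta-catenin route, were 5.68, 7.27, 9.83 and 6.93, and those of Wnt5b were 3.93, 5.21, 3.68 and 3.51. Wnt11, which acts in cell movement and kidney branching, was at 4.13, 3.01, 2.33 and 1.96. Levels of Wnt11 were lower in each later library, with a log2 ratio of −0.62 (−0.93 to −0.32) for E14.5 to E12.5. Wnt9a was at 1.87, 2.27, 2.67 and 1.36, and its log2 ratio of E14.5 to E13.5, −0.97 (−1.33 to −0.63), was just under the 2-fold limit. Wnt2 (23, 12, 9 and 3 counts), Wnt10a (9, 15, 12 and 8) and Wnt16 (21, 6, 9 and 1) were rare, and none of their differences passed the test. For Wnt16 the log2 ratio of E12.5 to E11.5 was −1.68 (−3.28 to −0.32).

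Among the receptors, Fzd1, Fzd2 and Fzd7, which form 1 branch of the frizzled family, fell together with Fzd4 between E11.5 and E12.5. Fzd2 had the highest mean level of the receptors, at 33.0, 14.2, 15.7 and 19.0. Fzd7 was at 26.07, 12.0, 11.51 and 11.9, and Fzd1 at 23.2, 11.1, 11.503 and 12.1. Fzd4, which also serves as the receptor for norrin in blood vessels, was at 12.2, 5.89, 4.69 and 4.73. In all 4 the E11.5 library was highest, and for Fzd1 and Fzd7 the later libraries were close to each other. Fzd2 was higher at E14.5 than at E12.5, with a log2 ratio of 0.42 (0.32 to 0.53). Fzd4 was lower at E13.5 than at E12.5, with −0.33 (−0.44 to −0.22), and neither difference was called. The log2 ratios of E12.5 to E11.5 were −1.06 (−1.15 to −0.97) for Fzd1, −1.22 (−1.31 to −1.14) for Fzd2, −1.12 (−1.20 to −1.04) for Fzd7 and −1.05 (−1.15 to −0.96) for Fzd4. These values lie just past the 2-fold limit. The calls of Fzd1, Fzd4, Fzd7, Sfrp5 and Wnt7b were lost when the biological coefficient of variation was set to 0.2 or when total counts replaced TMM, and in the ratio of the deposited TPM Fzd1, Fzd2, Fzd4, Fzd7 and Wnt7b were under 2-fold.

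Fzd9 moved the other way. It had 47, 284, 147 and 48 counts from E11.5 to E14.5, with levels of 0.650, 4.29, 1.76 and 1.21. It was highest at E12.5. Its log2 ratio was 2.72 (2.27 to 3.20) for E12.5 to E11.5 and −1.28 (−1.58 to −0.99) for E13.5 to E12.5. Fzd9 was the only one of the 34 tested genes called in E13.5 versus E12.5, and the call was lost at a coefficient of variation of 0.2. None of the 34 tested rose in that comparison, where 1.23% of all genes rose, and 1 fell, where 0.592% fell. Of the tissue markers, all 5 Leydig cell genes and the germ cell gene Sycp3 rose between these libraries. Cdh16 and the embryonic globins Hba-x, Hbb-bh1 and Hbb-y fell, and the part of these markers in the Fzd9 result was not tested.

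The other 5 receptors were not called in any comparison. Fzd3, a receptor of the planar cell polarity route, was at a level of 11.9, 10.1, 9.80 and 9.43, Fzd8 at 6.31, 6.83, 7.05 and 7.29, Fzd5 at 3.31, 5.04, 4.55 and 3.92, Fzd10 at 2.80, 3.35, 3.27 and 2.38, and Fzd6 at 2.82, 2.13, 1.93 and 1.74. Summed over the 10 receptors, levels were 122, 75.0, 71.7 and 73.7 from E11.5 to E14.5. The 15 ligands summed to 63.7, 103, 109 and 151. The receptor sum was thus highest, and the ligand sum lowest, in the library with mesonephros.

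Transcripts of related genes can share reads, and this was examined after the values were seen. Between the longest coding transcripts of the 36 genes, compared pair by pair (630 pairs), the longest exact stretch in common was 47 bases, shared by Fzd1 with Fzd2 and by Fzd1 with Fzd7, and Fzd2 shared 38 bases with Fzd7. Exons of Fzd4 overlap those of Tmem135 by 117 bases on the opposite strand (Tmem135 had 1023, 952, 1415 and 630 counts), and those of Wnt7b overlap AU022754 by 38 bases, also on the opposite strand. AU022754 itself had 6, 2, 3 and 0 counts. Wnt5a overlaps Gm2670 (12, 11, 18 and 6 counts) by 345 bases on the opposite strand, and Fzd6 overlaps LOC102633351 (2, 2, 0 and 1 counts) by 315 bases on the same strand. How the counting treated strand is not given in the sources used here.

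**Figure D2:**
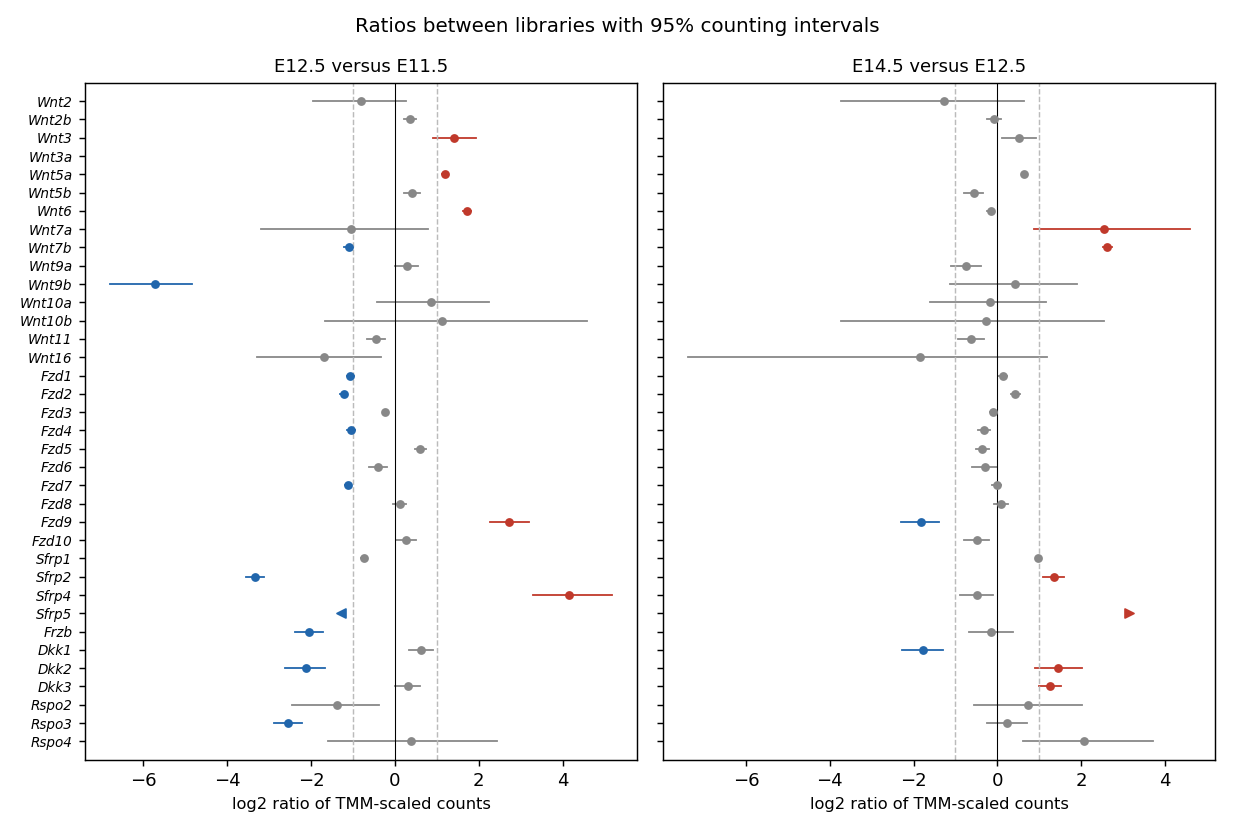
Log2 ratio of TMM-scaled counts with 95% Clopper-Pearson intervals for the 36 genes, E12.5 versus E11.5 on the left and E14.5 versus E12.5 on the right; red, up-regulated DEGs; blue, down-regulated DEGs; grey, not called; triangles, bounds against 0 counts; dashed lines, 2-fold. Wnt3a, at 3 counts or fewer in each library, has no point. Sfrp4 has the highest ratio of E12.5 to E11.5 (4.16) and Wnt9b the lowest (−5.72).

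Among the SFRPs, Sfrp1 was the most abundant, with levels of 51.9, 31.0, 40.9 and 61.0 from E11.5 to E14.5. It made up 63.0% of the summed SFRP level at E11.5 and 85.6% at E14.5. It was not called in any comparison, the log2 ratio of E14.5 to E12.5 being 0.98 (0.92 to 1.04).

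Sfrp2 had 2387 counts at E11.5 and 217, 423 and 331 in the later libraries, at levels of 25.96, 2.58, 3.98 and 6.55. The E11.5 library stood far above the others. Its log2 ratio was −3.33 (−3.54 to −3.13) for E12.5 to E11.5 and 1.35 (1.09 to 1.60) for E14.5 to E12.5. The call of the rise was lost at a coefficient of variation of 0.2 and with total counts. In the TPM ratio, where the median gene shifted by −1.49, it became −0.14. Frzb fell as well, its level being 4.22 at E11.5 and 1.03, 0.943 and 0.928 afterwards. The log2 ratio of Frzb was −2.04 (−2.38 to −1.71) at the first step, and it was not called from E12.5 to E14.5.

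Sfrp4 rose from 11 counts at E11.5 to 180 at E12.5 and had 160 and 77 counts later. Its levels were 0.182, 3.26, 2.30 and 2.32. Only the E11.5 library was low, and the log2 ratio of E12.5 to E11.5 was 4.16 (3.29 to 5.19). Sfrp5 was close to the limit of detection with 8, 0, 3 and 16 counts. Against a floor of 3 counts for the library at 0, it was at least 2.44-fold lower at E12.5 than at E11.5 and at least 8.89-fold higher at E14.5 than at E12.5. The fall was not called without the low-count filter, with TMM and the filter on the 2 libraries alone, or with at least 10 counts required in both libraries. Sfrp5 was tested in that comparison only through its counts at E14.5.

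The Dickkopf genes differed in direction. Dkk1, an inhibitor that binds the LRP co-receptors, was at 2.30, 3.56, 2.09 and 1.04, being highest at E12.5 and lowest at E14.5. It fell from E13.5 to E14.5, with a log2 ratio of −1.01 (−1.52 to −0.53), and from E12.5 to E14.5, with −1.78 (−2.27 to −1.31). The first of these calls was lost with DESeq2 size factors, with TMM on the 2 libraries alone, with a prior count of 2, without the low-count filter, at a coefficient of variation of 0.2 and at a 4-fold limit. Dkk2 was at 1.65, 0.378, 0.672 and 1.04, with its lowest level at E12.5. It fell at the first step, with a log2 ratio of −2.13 (−2.63 to −1.66), and rose from E12.5 to E14.5, with 1.45 (0.90 to 2.02). Dkk3, a divergent member of the family, was at 1.54, 1.90, 2.90 and 4.54, higher in each later library. Its log2 ratio of E14.5 to E12.5 was 1.26 (0.997 to 1.52). The calls of Dkk2 and Dkk3 in this comparison were lost at a coefficient of variation of 0.2 and with total counts. In the TPM ratio, where the median gene shifted by −1.49, they became −0.03 and −0.23.

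Among the R-spondins, Rspo3 had 587, 92, 71 and 65 counts from E11.5 to E14.5. Its level was 7.15 in the library with mesonephros and 1.22, 0.749 and 1.44 in the others. The log2 ratio of E12.5 to E11.5 was −2.55 (−2.88 to −2.23). Rspo2 (34, 12, 14 and 12 counts) and Rspo4 (5, 6, 11 and 15 counts) were rare, and neither was called. The log2 ratio of E12.5 to E11.5 for Rspo2 was −1.38 (−2.46 to −0.39), and it was called down when TMM and the filter used the 2 libraries alone. The log2 ratio of E14.5 to E12.5 for Rspo4 was 2.06 (0.61 to 3.71).

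The E14.5 library was compared with that of E13.5 and, because both lack the mesonephros, with that of E12.5. These comparisons share the E14.5 library, and each consecutive pair of comparisons shares the library between them. From E13.5 to E14.5, 3 of the 34 genes rose (Sfrp5, Wnt7a and Wnt7b), where 4.08% of all genes rose, and 1 fell (Dkk1), where 0.597% fell. Sfrp5 and Wnt7a were tested only because of their counts at E14.5, so the number of rising genes includes 2 that passed the filter through the library where they are high. With at least 10 counts required in both libraries, Wnt7b alone rose. From E12.5 to E14.5, 6 rose (Dkk2, Dkk3, Sfrp2, Sfrp5, Wnt7a and Wnt7b), where 6.04% of all genes rose, and 2 fell (Dkk1 and Fzd9), where 1.44% fell. Sfrp5 and Wnt7a are included here in the same way. Of 4 smooth muscle markers, Acta2, Actg2 and Myh11 rose from E12.5 to E14.5, the summed level being 29.4, 45.7 and 60.5 in these 3 libraries with none at 0. All 5 Leydig cell markers rose as well (80.0, 350 and 584), as did 1 of 4 pregranulosa genes (Foxl2, while Bmp2, Fst and Irx3 were lower but not called) and 1 of 5 germ cell genes (Sycp3). Of 5 erythroid markers the embryonic globins Hba-x, Hbb-bh1 and Hbb-y fell (summed level of the 5 genes 2610, 1020 and 286), and Alas2 and Slc4a1 were higher but not called. In the deposited TPM, where the median gene shifted by −1.49, Acta2, Actg2 and Myh11 were at 29.8, 1.32 and 3.84 at E12.5. At E14.5 they were lower, at 26.3, 1.14 and 3.38. Foxl2 was at 11.7 in both libraries, and Sycp3 and all 5 Leydig cell markers stayed higher at E14.5. The part of all these markers in these results was not tested. With total counts in place of TMM or at a coefficient of variation of 0.2, the Dkk2, Dkk3, Sfrp2 and Wnt7a calls of E14.5 versus E12.5 were lost. At a coefficient of variation of 0.4, the calls of Sfrp2, Sfrp4 and Wnt9b in E12.5 versus E11.5 were the only ones of the 36 genes that remained in any comparison.

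Other genes of the pathway were examined for the same comparisons, 68 genes in 6 lists. From E11.5 to E12.5, 4 of the 67 tested rose and 9 fell, with a median log2 fold change of −0.09 against −0.00 for all genes. Of all tested genes 7.01% rose and 6.88% fell in that comparison. Among genes of the receptor complex, the R-spondin receptor Lgr5 rose, at levels of 1.66, 6.62, 7.25 and 6.07. The receptor tyrosine kinases Ror1 and Ror2, which bind Wnt5a, fell, with log2 ratios of −2.21 (−2.33 to −2.09) and −1.15 (−1.31 to −1.004). While the ligand Wnt5a rose, its receptors Ror1 and Ror2 fell between the same 2 libraries. Ryk and Ptk7, genes of the same list, were not called, with 0.03 (−0.06 to 0.12) and −0.33 (−0.37 to −0.28). Of the 8 nephric and mesonephric markers 6 fell in this comparison, as did the neuronal genes Dbh and Elavl4. Their part in the falls of pathway genes was not tested. Lgr4, another R-spondin receptor, had the highest mean level of this list, at 45.6, 60.9, 55.5 and 43.5, with Ptk7 above it at E11.5 and E14.5.

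Of the extracellular regulators, Gpc4, a heparan sulphate proteoglycan, and Sost, an inhibitor of the LRP co-receptors, rose, while Cthrc1, Draxin, Gpc6 and Tpbg fell. Gpc4 was at 14.007, 35.1, 39.3 and 40.2 and Gpc6 at 28.6, 12.3, 10.8 and 10.2. The 2 glypicans therefore moved in opposite directions, and Gpc3, the most abundant gene of the list, was not called. Of genes needed to make or clear ligands, Notum, which removes the lipid from Wnt proteins, fell, and Wls, which carries ligands to the cell surface, was at 27.2, 26.4, 28.1 and 26.6. Of 13 targets and feedback genes, Lgr5 and Sp5 rose and Ccnd1 and Notum fell. Axin2, a widely used readout of the beta-catenin route, was at 8.73, 12.4, 15.5 and 10.5 and was not called. Myc had the highest mean level of that list, with Ccnd1 above it at E11.5 and Tnfrsf19 at E13.5 and E14.5. In the planar cell polarity list Celsr3 fell, and Prickle2 was the most abundant.

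Of the 67 tested, 1 rose and 0 fell from E12.5 to E13.5 (1.23% and 0.592% of all genes), 2 rose and 1 fell from E13.5 to E14.5 (4.08% and 0.597%), and 2 rose and 2 fell from E12.5 to E14.5 (6.04% and 1.44%). Sostdc1, a secreted inhibitor of Wnt and BMP signals, was at 1.32, 2.29, 6.31 and 13.9, and it rose from E12.5 to E13.5, with a log2 ratio of 1.46 (1.17 to 1.76), and again to E14.5, with 1.14 (0.94 to 1.33). Kremen2, a Dickkopf receptor, rose to 46 counts at E14.5 from 20 at E13.5, with a log2 ratio of 2.27 (1.49 to 3.11). Its transcript aligns to the opposite strand of Lars2 over 92 bases at 75.0% identity, and the part of Lars2 in this rise was not tested. Sostdc1 had no such alignment. Porcn, the enzyme that adds the lipid to Wnt proteins, fell from E13.5 to E14.5, with a log2 ratio of −1.35 (−1.74 to −0.98). Lef1 and Sost fell from E12.5 to E14.5, with −1.12 (−1.27 to −0.97) for Lef1. None of the 20 transduction genes, of which Ctnnb1 (beta-catenin) was the most abundant, was called between consecutive time points. Among them, 6 of 20 had a positive log2 fold change from E11.5 to E12.5 and 8 from E12.5 to E13.5. The count was 2 from E13.5 to E14.5 and 4 from E12.5 to E14.5. Their median log2 fold changes were −0.12, −0.03, −0.11 and −0.12 in this order, against −0.00, 0.00, −0.01 and −0.00 for all genes.

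Wnt3 and Wnt9b, which moved in opposite directions at the first step, are neighbours on chromosome 11. In the coordinates of the files (mm10), Wnt9b lies at chr11:103727363-103749821 on the minus strand and Wnt3 at chr11:103774175-103818021 on the plus strand, 24353 bases apart with no other feature between them. Wnt6 and Wnt10a lie 6696 bases apart on chromosome 1, and Wnt3a and Wnt9a 16098 bases apart on chromosome 11. Within the second pair, Wnt6 was at a level of 44.2 at E12.5 and Wnt10a at 0.244.

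The promoters of genes that moved, picked after the values were seen, are shown because Wnt3 and Wnt9b are divided by a shared intergenic stretch and because Fzd1, Fzd4 and Fzd7 fell together. Sequences come from RefSeq (GRCm38.p6), in which 24 of the 36 genes had an entry, 27 windows of 300 bases in all. Fzd2, which fell with Fzd1, Fzd4 and Fzd7, had no entry. Only the 250 bases before the start are printed. Capitals mark the TCF/LEF core CTTTGA on either strand (TCAAAG on the other). The windows are chr11:103773925-103774174 (plus strand) for Wnt3, chr11:103749822-103750071 (minus) for Wnt9b, chr5:4758217-4758466 (minus) for Fzd1, chr7:89404116-89404365 (plus) for Fzd4 and chr1:59481897-59482146 (plus) for Fzd7.
Wnt3: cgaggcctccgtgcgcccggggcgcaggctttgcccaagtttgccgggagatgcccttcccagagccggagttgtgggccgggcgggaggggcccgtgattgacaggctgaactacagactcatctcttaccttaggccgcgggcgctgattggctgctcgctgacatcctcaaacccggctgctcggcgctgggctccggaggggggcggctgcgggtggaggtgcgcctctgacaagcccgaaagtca
Wnt9b: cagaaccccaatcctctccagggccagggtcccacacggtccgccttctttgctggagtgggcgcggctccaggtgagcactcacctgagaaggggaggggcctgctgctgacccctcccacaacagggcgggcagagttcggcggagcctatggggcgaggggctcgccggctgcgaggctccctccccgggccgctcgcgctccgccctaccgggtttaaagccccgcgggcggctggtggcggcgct
Fzd1: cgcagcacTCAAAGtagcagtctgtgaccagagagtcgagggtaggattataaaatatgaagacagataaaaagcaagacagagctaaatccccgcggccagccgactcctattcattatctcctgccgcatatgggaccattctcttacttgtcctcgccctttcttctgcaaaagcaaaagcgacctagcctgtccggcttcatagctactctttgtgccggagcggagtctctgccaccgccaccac
Fzd4: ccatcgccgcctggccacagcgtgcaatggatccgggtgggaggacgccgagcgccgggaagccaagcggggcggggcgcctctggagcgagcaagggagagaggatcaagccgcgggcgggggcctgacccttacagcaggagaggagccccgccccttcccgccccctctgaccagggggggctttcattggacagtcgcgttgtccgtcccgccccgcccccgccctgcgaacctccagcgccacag
Fzd7: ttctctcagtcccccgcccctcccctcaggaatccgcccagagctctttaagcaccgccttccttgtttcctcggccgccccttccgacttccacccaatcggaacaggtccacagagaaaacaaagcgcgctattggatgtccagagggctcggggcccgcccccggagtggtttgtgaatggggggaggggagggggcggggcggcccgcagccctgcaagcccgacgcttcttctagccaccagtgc
The core was found in 5 of the 27 windows, those of Dkk1, Frzb, Fzd1, 1 of 2 for Wnt11 and 1 of 3 for Wnt5b, and in 16.003% of the 32851 windows in the table. The steroidogenic factor 1 sequence CAAGGTCA (TGACCTTG on the other strand) was found in none of the 27 and in 1.56% of all. The median GC content was 66.7% for the 27 windows and 52.7% for all. A match is a description of the sequence only.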

How the data were processed

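Total RNA of pooled XX and XY gonads was sequenced at 4 time points, 1 library each. The authors depleted ribosomal RNA, built stranded libraries with UMIs, aligned to mm10 with STAR, removed duplicates with UMI-tools and counted reads with featureCounts, and their deposited read counts were used here. The deposited TPM served as an alternative, and the deposited RPKM was not analysed. Versions, the annotation release and the strand setting are not given in the sources used here. Counts were filtered by filterByExpr and scaled by TMM over the 4 libraries and tested with edgeR 4.0.16 in R 4.3.3 at a preset dispersion of 0.01, with a prior count of 0.125; the alternatives used DESeq2 1.42.0. Log2 ratios have exact Clopper-Pearson 95% intervals, and a library at 0 counts was set to 3; unlike the planned floor, 1 to 3 counts kept their ratio unless both libraries had 3 or fewer, where none is given. Named were all 36 genes and the pathway genes called in any comparison or highest in their list in some library. Axin2 was added as a readout and Ryk for comparison with Ror1 and Ror2. Members and lists were chosen with earlier results of these data known. Transcripts were compared in GENCODE (GRCm38) with BLASTN 2.17.0. Other genes of these families were not analysed here.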

Additional observations from a re-analysis of the deposited data

How the results depend on the processing

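The number of DEGs depended on the preset variability. At a coefficient of variation of 0.2 it was 1824 for the first step, E12.5 versus E11.5 (2793 at 0.1, the setting used here), 51 for the second step (366), 485 for the third step, E14.5 versus E13.5 (940), and 800 for E14.5 versus E12.5 (1504), and at 0.4 it was 283, 1, 31 and 71. Of the 36 genes, 0 were called at the second step and 4 in E14.5 versus E12.5 at 0.2 (1 and 8 at 0.1), and 3, 0, 0 and 0 in the order above at 0.4. A limit of 4-fold gave 1275, 103, 383 and 595 DEGs, and called 8, 0 and 3 of the 36 in E12.5 versus E11.5, the second step and E14.5 versus E12.5. Fold alone gave 1119, 1789 and 2414 DEGs in the last 3 comparisons and 2 of the 36 in E13.5 versus E12.5.

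Total counts gave 11515 DEGs (282 up) in E14.5 versus E13.5 and 10369 (400 up) in E14.5 versus E12.5, with 20 of the 36 genes (3 up) and 18 (2 up). The TPM ratio gave 17874 (239 up), 16631 (370 up) and, for the E13.5 to E12.5 ratio, 1504 DEGs, with 27, 26 and 4 of the 36. At least 10 counts in both libraries left 2 of the 36 in E14.5 versus E13.5. Total counts without the 10 most abundant genes of each library, an alternative chosen after seeing the data, called 5 of the 36 in E14.5 versus E13.5, namely Dkk1, Sfrp5, Wnt7a, Wnt7b and Wnt9a.

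Total counts and TPM move all genes of a comparison by about the same amount, so positive log2 fold changes smaller than that amount change sign at E14.5. Listed are only those that were called before or are past 2-fold after the change. With total counts, log2 fold changes to E13.5 became −1.05 for Fzd4, −1.02 for Fzd7, −1.01 for Fzd8 and −1.04 for Sfrp4. As TPM ratios to E13.5 they became −1.12 for Wnt3, −1.25 for Wnt5a, −1.13 for Wnt10a, −1.54 for Fzd1, −1.34 for Fzd2, −1.60 for Fzd4, −1.57 for Fzd7, −1.57 for Fzd8, −1.04 for Sfrp1 and −1.60 for Sfrp4. As TPM ratios to E12.5 they became −1.07 for Wnt9b, −1.36 for Fzd1, −1.07 for Fzd2, −1.40 for Fzd8, −0.14 for Sfrp2, −0.03 for Dkk2, −0.23 for Dkk3 and −1.25 for Rspo3. The median gene shifted by −1.62 and −1.49 in these TPM ratios. With total counts against E13.5 it shifted by −1.06. Genes below about 10 counts limit what this depth can show.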
